A study of Mus musculus with 8 samples.

Results

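The Rab genes encode the small GTPases that direct membrane traffic, and their occupancy was read from anti-IRF5 CUT&Tag peak lists of mouse macrophages. They were taken as all genes that the authors' annotation names Rab followed by a number and at most a letter and a digit, which gave 45 of 20875 named genes. Symbols of Rab-interacting or antisense genes were left out by that rule. The files name a gene only where it was the nearest gene of a peak in these lists. Rab genes nearest to no peak are therefore missing from the 45, and the 20875 named genes are limited in the same way. Below, the family means these 45 genes and not all Rab genes of the mouse. Wild-type macrophages derived from bone marrow had been stimulated with CpG, unmethylated DNA sensed by the receptor TLR9, or had received PBS as the control. Each of the 2 conditions had 2 libraries made with antibody ab21689 against IRF5, a transcription factor that acts downstream of TLR9 and MyD88, and 4 IgG libraries of the series have no peak list here. The dose and duration of CpG, and whether the libraries of a condition came from separate animals or cultures, are not in the labels. The p-values below therefore speak only of how these libraries varied, and that variation may be technical. Per the names of the lists, the IgG background of the peak calls was taken from the same condition, so that condition and background library cannot be told apart.

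A Rab protein works as a switch on a membrane: loaded with GTP by an exchange factor it recruits effectors such as tethers and motors, and a GTPase-activating protein turns it off. Prenyl groups anchor it in the membrane, and a dissociation inhibitor carries it back through the cytosol. In macrophages, Rab proteins mark the steps by which a phagosome matures into a lysosome, by which receptors such as TLR9 reach endolysosomes, and by which cytokines leave the cell.

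The lists used here held 13553 and 25851 peaks in CpG 1 and CpG 2, and 29226 and 37315 in control 1 and control 2. Median peak lengths were 202 and 317 bp in the CpG libraries, against 291 and 341 bp in the control libraries. CpG 1 stood apart with the shortest list and the shortest peaks, so results between conditions are given with and without it. The lists hold no read totals, so depth is unknown. Of 10 macrophage markers 9 were named in the files, and 6 and 8 of them had a peak in their promoter in CpG 1 and CpG 2, against 8 in each control library. Markers of B cells, T and NK cells and erythroid cells had no promoter call in any library. Of 4 neutrophil markers 1 was called in control 2, and Pecam1, listed as a stromal and endothelial marker, was called in all 4 libraries.

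Sequence upstream of 5 Rab genes is shown first because their promoters carry the patterns described below. Rab7 had its promoter peak in both control libraries only, Rab5c in both CpG libraries only, and Rab5a and Rab40c in all 4 libraries. Rab19 is shown because it was the one Rab gene whose RefSeq window held an interferon-stimulated response element, the class of site that IRF proteins recognise. Each run is the 250 bases before the gene's start in the RefSeq table of build GRCm38.p6, read 5′ to 3′ in the direction of the gene. Capitals mark the GC box GGGCGG on either strand, and in Rab19 the response element GAAANNGAAA on the opposite strand. The Rab7 window is the one whose start lies farther upstream of 2 in the table, at chr6:88045271-88045520 on the minus strand, and the bases printed held none of the 6 motifs searched. The searched windows run on 50 bases past the start, where this Rab7 window held 1 GC box at 25 to 30 bp, and the other Rab7 window held 3. Those of Rab5c (chr11:100738216-100738465, minus strand) and Rab5a (chr17:53478984-53479233, plus strand) each held 1 GC box. That of Rab40c (chr17:25919715-25919964, minus strand) held 4. Rab19 lies on the plus strand at chr6:39381103-39381352. The peaks were called on another build, not given in the sources used here, so the letters are placed beside the peaks by gene and by distance from the start. Gene lengths in the files and in RefSeq differed by 1 bp at Rab7, 3 bp at Rab5a, 5 bp at Rab5c and 14 bp at Rab40c, but by 751 bp at Rab19.
Rab7: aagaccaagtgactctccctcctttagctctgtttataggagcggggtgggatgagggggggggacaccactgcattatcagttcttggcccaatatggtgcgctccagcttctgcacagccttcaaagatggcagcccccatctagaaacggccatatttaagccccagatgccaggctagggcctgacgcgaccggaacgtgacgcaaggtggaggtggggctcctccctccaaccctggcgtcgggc
Rab5c: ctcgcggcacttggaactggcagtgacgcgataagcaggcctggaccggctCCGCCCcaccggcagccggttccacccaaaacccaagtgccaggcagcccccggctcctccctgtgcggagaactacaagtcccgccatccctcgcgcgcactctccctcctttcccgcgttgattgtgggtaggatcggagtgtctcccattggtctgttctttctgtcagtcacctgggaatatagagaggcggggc
Rab5a: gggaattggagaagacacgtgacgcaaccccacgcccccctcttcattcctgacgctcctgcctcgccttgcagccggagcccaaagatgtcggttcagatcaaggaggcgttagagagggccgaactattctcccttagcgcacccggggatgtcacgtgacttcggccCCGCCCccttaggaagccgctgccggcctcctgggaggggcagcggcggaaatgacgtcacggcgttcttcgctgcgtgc
Rab40c: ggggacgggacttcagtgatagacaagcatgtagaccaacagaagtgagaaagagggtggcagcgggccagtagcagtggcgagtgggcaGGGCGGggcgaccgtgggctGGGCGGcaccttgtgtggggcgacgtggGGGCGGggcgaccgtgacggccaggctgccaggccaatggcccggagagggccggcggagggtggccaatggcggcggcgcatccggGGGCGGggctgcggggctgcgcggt
Rab19: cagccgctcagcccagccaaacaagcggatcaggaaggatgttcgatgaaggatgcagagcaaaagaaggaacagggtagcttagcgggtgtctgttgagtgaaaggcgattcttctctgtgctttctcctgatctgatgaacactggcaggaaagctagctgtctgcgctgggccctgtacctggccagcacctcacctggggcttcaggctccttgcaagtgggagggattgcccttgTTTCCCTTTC

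Promoter peaks were found at 8 and 19 of the 45 Rab genes in CpG 1 and CpG 2, against 16 and 21 in control 1 and control 2. These are 17.8% and 42.2% of the 45 genes in the CpG libraries and 35.6% and 46.7% in the control libraries. A promoter call here means that the authors' annotation put a peak in the Promoter class of that gene, a class that follows the position of the peak's summit, the point of highest pileup. The background, the share called the same way, was 10.4% and 22.3% of all named genes in CpG 1 and CpG 2, against 24.1% and 28.7% in control 1 and control 2. Among the 11344 named genes that RefSeq lists as protein coding, as it does all 45 Rab genes, it was 14.1% and 30.5% in the CpG libraries, against 33.2% and 38.8% in the control libraries. The Rab share was above both backgrounds in each library, least in control 1, where it was 1.07 times that of protein-coding genes. The conditions overlapped, since CpG 2 lay between the control libraries. The mean share was 30.0% ± 17.3 with CpG and 41.1% ± 7.86 in the control (SD, n = 2 each), a difference of -11.1 percentage points (p = 0.667, exact permutation test, two-sided). With 4 libraries and 6 assignments no p can go below 0.333. Without CpG 1 the difference was 1.11 percentage points (exact permutation p = 1.0), so its direction rests on that library. With every list cut to the length of the shortest it was -4.44 percentage points (exact permutation p = 0.667).

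Set against all named genes of the same library, the Rab share was 1.71 and 1.90 times as high in CpG 1 and CpG 2, against 1.47 and 1.63 times in control 1 and control 2. The ratio averaged 1.81 ± 0.129 with CpG and 1.55 ± 0.107 in the control, and both CpG libraries lay above both control libraries. The difference of 0.255 had an exact permutation p of 0.333, the smallest the design allows, and so did not pass a test. With every list cut to the shortest it was -0.00267 (p = 1.0, exact permutation), and leaving out CpG 1 it was 0.347 (p = 0.667, exact permutation). Peaks whose nearest gene was a Rab gene numbered 30 and 90 in the CpG libraries and 101 and 133 in the control libraries. They made up 0.221% and 0.348% of all peaks with CpG and 0.346% and 0.356% in the control, where Rab genes are 0.216% of the named genes. The mean difference was -0.0663 percentage points (exact permutation p = 0.667) and -0.00285 without CpG 1 (exact permutation p = 1.0).

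**Figure D1:**
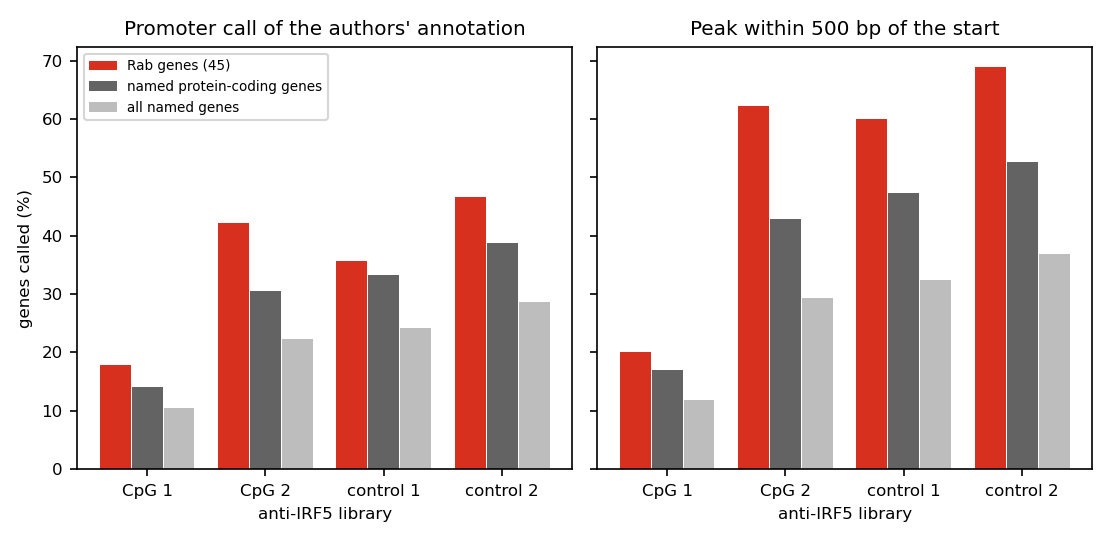
Percent of Rab genes (red), named protein-coding genes (dark grey) and all named genes (light grey) called in each anti-IRF5 library, by the authors' Promoter class (left) and by a peak within 500 bp of the gene start (right). The red bar is the tallest in every library, and CpG 1 has the lowest bars of every kind.

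Among the Rab genes of early endosomes, Rab5a carried a promoter peak in all 4 libraries, while its paralog Rab5c was called in both CpG libraries only. The Rab5 proteins drive fusion of early endosomes and of young phagosomes with them. Rab5a (chr17:53786261-53814708, plus strand, in the files' build) had summits at -247 and -187 bp from its start in CpG 1 and CpG 2, and at -177 and -212 bp in control 1 and control 2. The fold enrichment at these peaks, the authors' ratio of pileup to local background, was 3.56 and 5.27 in the CpG libraries and 8.55 and 10.6 in the control libraries. Such folds are the authors' values for each peak and are used only to place a peak within its own list. The Rab5a peak lay at the 9.36 and 31.2 percentiles of the CpG lists and at the 86.1 and 86.6 percentiles of the control lists, and ranks in lists of different length show no change. An intron peak at 9630, 9633 and 9556 bp was called in CpG 2, control 1 and control 2.

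Rab5c (chr11:100605834-100629041, minus strand) was the one Rab gene called in both CpG and no control library, 2.22% of the family against 0.618% of all named genes and 0.811% of protein-coding genes. Its peaks were weak, with folds of 2.30 and 3.74 at -145 and -138 bp, at the 0.528 and 5.32 percentiles of the CpG 1 and CpG 2 lists. Both control libraries also had a peak over the Rab5c start. Those peaks had folds of 4.82 and 5.77 and summits at 52 and 123 bp, which put them in the exon and 5′ UTR classes, and they shared 86 and 158 bp with the CpG 1 peak. Rab5c thus differed between the conditions in the class of its peak, while all 4 libraries had a peak over its start.

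Rab5b, the third Rab5 paralog, was called in CpG 2, control 1 and control 2, with folds of 4.03, 9.71 and 9.36. Rab31, which acts between the Golgi and endosomes and is also called Rab22b, was called in CpG 2 at -1780 bp and in control 2 at -66 bp. CpG 2 also had a Rab31 peak of fold 6.0 just inside the start. Its summit at 162 bp put it in the exon and 5′ UTR classes. Rab20, which takes part in phagosome maturation in macrophages, had no promoter call. It had a peak in its first exon at 187, 188 and 197 bp, with folds of 3.16, 5.24 and 8.83 in CpG 2, control 1 and control 2. Over the 5 early endosomal genes, 2 and 4 were called in the CpG libraries and 2 and 3 in the control libraries. Such counts, here and for the roles below, are given as a description. Of protein-coding genes, 14.1% and 30.5% were called in the CpG libraries and 33.2% and 38.8% in the control libraries.

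**Figure D2:**
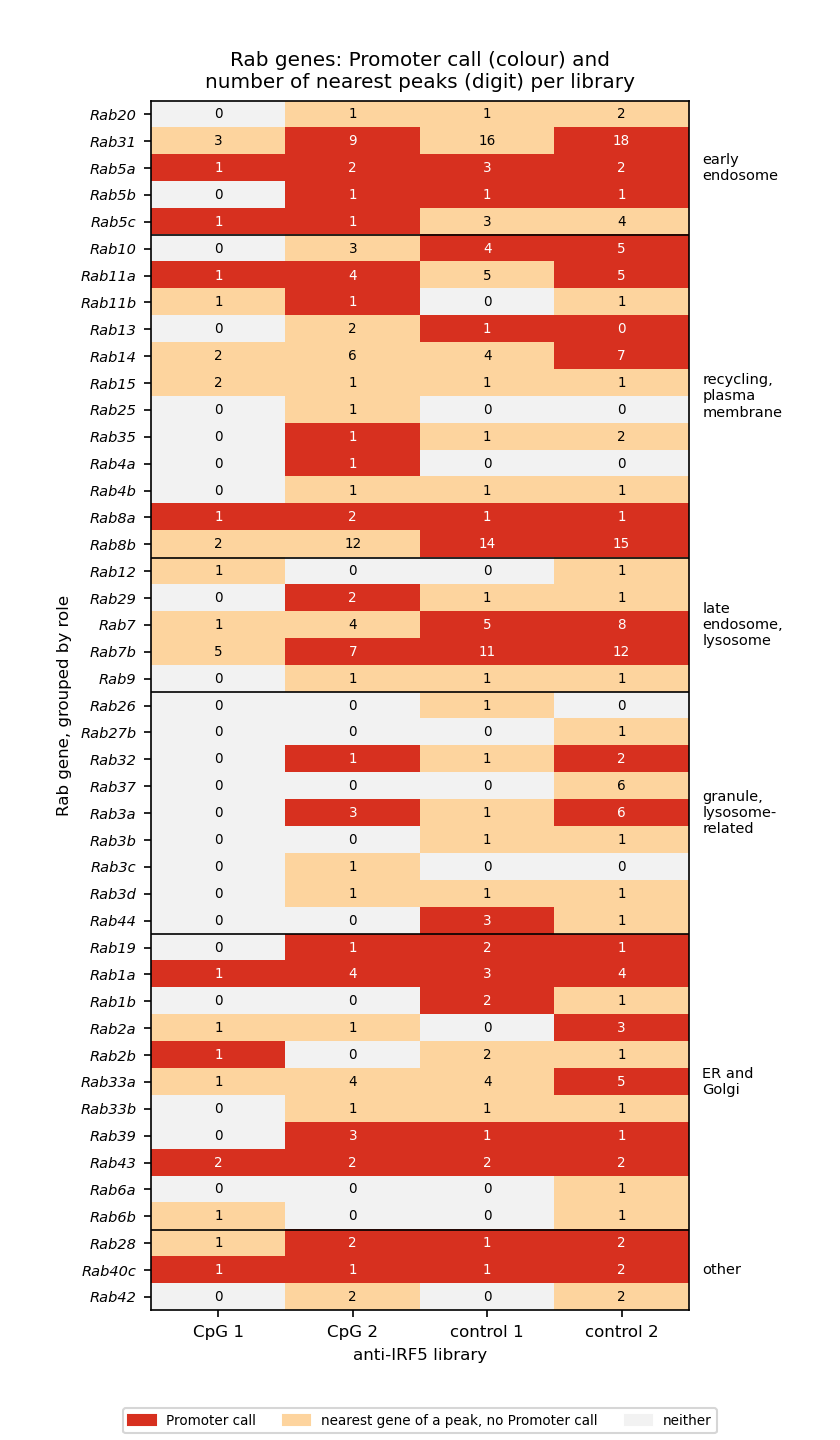
Each of the 45 Rab genes (down the page, grouped by role) in each anti-IRF5 library (across), coloured red for a Promoter call, orange where it was the nearest gene of a peak without such a call, and grey for neither. The digit is the number of peaks nearest to the gene. Rab1a, Rab5a, Rab8a, Rab40c and Rab43 are red in all 4 columns, and Rab7, Rab8b, Rab10 and Rab13 in both control columns only.

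The Rab genes of recycling and of traffic to the plasma membrane held 3 of the 4 genes called in both control libraries only, but each of the 3 also had a CpG 2 peak over its start. The 4 genes are 8.89% of the family, beside 4.35% of all named genes and 6.06% of protein-coding genes. Rab10, which serves recycling and the delivery of vesicles to the surface, had promoter folds of 5.69 and 3.76 in control 1 and control 2. In CpG 2 a Rab10 peak of fold 4.54 shared 643 and 797 bp with them, and its summit at 18 bp put it in the exon class. Rab8b, a paralog of Rab8a, had promoter folds of 5.73 and 5.36 in the control libraries, and a CpG 2 peak of fold 4.10 with its summit at 78 bp. Rab13, known from traffic to cell junctions, had folds of 7.17 and 11.4 in the control libraries, where the annotation gave another gene as the nearest. Its CpG 2 peak had a fold of 3.0 and a summit at 40 bp. CpG 1 had no peak within 500 bp of the start of any of the 3.

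**Figure D3:**
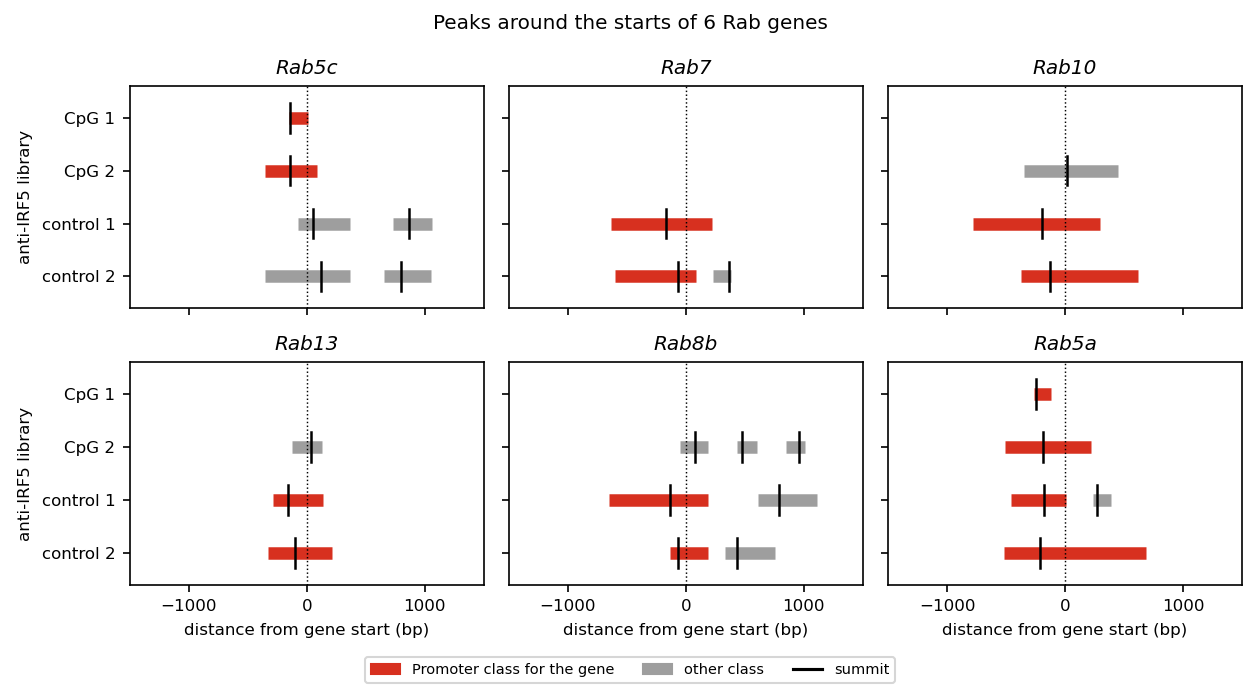
Peaks around the starts of 6 Rab genes in each anti-IRF5 library, drawn as bars along the distance from the gene start in bp, with the summit as a black line, red where the peak was in the Promoter class of the gene and grey otherwise. At Rab5c both control libraries have a grey peak over the start, at Rab10, Rab13 and Rab8b CpG 2 has one, and at Rab7 neither CpG library has a peak in the window.

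Rab8a, which acts in secretion and in signalling from Toll-like receptors on macropinosomes, was called in all 4 libraries. Its folds were 3.90 and 5.42 in CpG 1 and CpG 2 and 4.07 and 5.51 in control 1 and control 2, at summits between -100 and -69 bp. The same peaks were promoter peaks of the neighbouring gene Gm16091, so they cannot be given to Rab8a alone. Rab11a, the marker of recycling endosomes, was called in CpG 1, CpG 2 and control 2 with folds of 3.0, 6.01 and 4.69. In control 1 the Rab11a peak of fold 10.2 had its summit at 118 bp, outside the Promoter class. Rab14, which acts between the Golgi and endosomes and on phagosomes, was called in control 2 alone, at -23 bp with a fold of 3.68, while CpG 2 had a peak of fold 2.89 with its summit at 36 bp.

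Rab11b, Rab35 and Rab4a, all recycling genes, were called in CpG 2 alone. At Rab11b, however, the other libraries also had a peak over the start, with summits at 11 bp in CpG 1 and at 92 and 46 bp in control 1 and control 2. Their folds were 3.25 in CpG 1 and 2.82 and 4.04 in control 1 and control 2. Rab4b, the paralog of Rab4a, had no promoter call but an intron peak near the start, with folds of 9.26, 7.79 and 10.7 in CpG 2, control 1 and control 2. Rab15 had no promoter call and a peak between -14665 and -14648 bp in each library, with folds of 3.13 and 7.22 in the CpG libraries and 10.3 and 6.72 in the control libraries. Rab25, a relative of Rab11a found mainly in epithelia, was the nearest gene of 1 peak in CpG 2. Over the 12 genes of this role, 2 and 5 were called with CpG and 4 and 6 in the control.

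Of the Rab genes of late endosomes and lysosomes, Rab7 had a promoter peak in both control libraries and no CpG peak over its start. Rab7 encodes the GTPase that directs late endosomes and phagosomes to fuse with lysosomes (chr6:87976087-88022252, minus strand). Its promoter peak had folds of 12.5 and 15.3 in control 1 and control 2, at the 96.2 and 94.6 percentiles of those lists, with summits at -170 and -68 bp. No peak of either CpG library overlapped it. The CpG peaks nearest to its start were at -2680 bp in CpG 2 and -11742 bp in CpG 1. Of the 4 genes called in both control libraries only, Rab7 was the one left when any overlapping CpG peak, by 1 bp or by 50% of the shorter peak, took a gene out of the count. This rule was applied to Rab genes only, so its own background share is not known and the count is a description. A related count, given below, took any peak within 500 bp of the start. By it 2 of the 45 Rab genes were covered in both control libraries only, a smaller share than the 8.97% of protein-coding genes. In the authors' lists of whole conditions, Rab7 had a promoter peak of fold 14.0 in the control list and none in the CpG list.

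Upstream of Rab7, some peaks were shared between the conditions. A region centred at -11844 bp was called in all 4 libraries, with folds of 4.85 and 9.17 in CpG 1 and CpG 2 and of 7.10 and 38.6 in control 1 and control 2. The control 2 peak there was at the 99.6 percentile of its list and had the highest fold of any Rab peak in the 4 libraries. Regions centred at -2595, -8657 and -15348 bp were each called in all libraries but CpG 1. Those centred at -6036 and -6402 bp were called in control 2 alone. CpG 2 thus lacked a peak at the Rab7 start and in the regions at -6036 and -6402 bp. It had one in the regions at -2595, -8657, -11844 and -15348 bp. Regions shared between the conditions hold a CpG peak by definition, so no contrast with the start is drawn from them. CpG 1 had a peak only in the region at -11844 bp.

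Rab7b, a late endosomal GTPase known from the degradation of TLR9 and TLR4 in macrophages, was called in all libraries but CpG 1. Its promoter folds were 6.83 in CpG 2 and 3.39 and 6.57 in control 1 and control 2. Rab29, which recruits LRRK2 to the Golgi and lysosomes, was called in CpG 2 only, but control 1 and control 2 had peaks of fold 7.75 and 7.82 with summits at 63 and 184 bp. Rab9, which returns mannose 6-phosphate receptors from late endosomes to the Golgi, and Rab12, which sends the transferrin receptor to lysosomes, had no promoter call. Rab9 had a first-exon peak in all libraries but CpG 1. None of the 5 genes of this role was called in CpG 1, and 2 were called in each of the other libraries.

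Of the 9 Rab genes of secretory granules and lysosome-related organelles, 0 and 2 were called in CpG 1 and CpG 2, against 1 and 2 in control 1 and control 2, and 6 were called in none. With 9 genes these counts are given as a description. Rab32, which acts in melanosome formation and in the defence of macrophages against intracellular bacteria, was called in CpG 2 and control 2 with folds of 5.79 and 7.66. Its control 1 peak, of fold 6.43, had its summit at 128 bp. Rab3a, a regulator of exocytosis best known from synapses, was called in CpG 2 from peaks of fold 5.61 at -734 bp and 3.93 at -49 bp, and in control 2 from peaks of fold 5.41 at -1428 bp and 2.92 at -880 bp. Over the Rab3a start itself, control 1 and control 2 had peaks of fold 15.1 and 12.0 with summits at 23 and 45 bp. The CpG 2 peak with its summit at -49 bp also ran over the start. Rab44, a large Rab of immune cells, was called in control 1 alone with a fold of 3.25.

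Rab3b, Rab3c, Rab3d, Rab26, Rab27b and Rab37, all known from regulated secretion, had no promoter call. None of these 6 was the nearest gene of any peak in CpG 1, where 44.4% of the 45 Rab genes and 43.1% of named genes were. The 6 were grouped by their lack of a promoter call, so this is a description. Rab37 was the nearest gene of 6 peaks in control 2 and of none elsewhere. Rab27a and Rab38, also of lysosome-related organelles, were the nearest gene of no peak in the lists used here, and no value is given for them.

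The Rab genes of the endoplasmic reticulum and Golgi included Rab1a and Rab43, both called in all 4 libraries. Rab1a, which drives transport from the endoplasmic reticulum to the Golgi, had folds of 3.80 and 8.45 at -157 and -169 bp in CpG 1 and CpG 2. In control 1 and control 2 its folds were 7.91 and 9.82 at -226 and -162 bp. A Rab1a intron peak at 3089, 3038 and 3034 bp was called in CpG 2, control 1 and control 2, with folds of 14.0, 7.97 and 26.2. Rab43, which acts at the Golgi, had folds of 4.47 and 6.18 in the CpG libraries and of 5.53 and 11.1 in the control libraries, with all summits 83 to 255 bp inside the gene.

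Rab39, a Golgi and endosomal Rab, was called in all libraries but CpG 1, with folds of 4.36, 6.82 and 5.94 in CpG 2, control 1 and control 2. Rab19 was called in the same 3 libraries from peaks far upstream, with summits between -1793 and -1336 bp. All of them but the control 2 peak at -1336 bp were also promoter peaks of Slc37a3, so they cannot be given to Rab19 alone. Those Rab19 peaks lie outside the window that holds the response element shown above. Rab2b was called in CpG 1 alone (fold 4.86 at -7 bp), while CpG 2 had a peak of fold 6.04 with its summit at 301 bp, and control 1 and control 2 had peaks with summits at 173 and 229 bp. Rab1b was called in control 1 alone, and Rab2a and Rab33a in control 2 alone. Rab6a and Rab6b, of traffic back through the Golgi, and Rab33b, which binds an autophagy complex, had no promoter call. Over the 11 genes, 3 and 4 were called with CpG and 5 and 6 in the control.

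Of the 3 Rab genes outside these roles, Rab40c, part of a ubiquitin ligase with Cullin 5, carried the tallest Rab promoter peak in each library. Its pileup was 80 and 185 in CpG 1 and CpG 2, against 121 and 233 in control 1 and control 2, values that are not scaled between libraries. Its folds were 3.38 and 12.0 in the CpG libraries and 7.93 and 15.0 in the control libraries, and its summits lay between -259 and -255 bp. Rab28, known from photoreceptors and cilia, was called in all libraries but CpG 1, with folds of 4.83, 3.18 and 3.28 in CpG 2, control 1 and control 2. Rab42 had no promoter call.

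Counted over the family, 5 Rab genes, or 11.1%, had a promoter call in all 4 libraries, against 5.46% of all named genes and 7.77% of protein-coding genes. Another 5 were called in all libraries but CpG 1, against 7.74% of named and 10.7% of protein-coding genes, a share near the background. A further 16, or 35.6%, had no promoter call in any library, against 60.1% of named and 46.6% of protein-coding genes. Without CpG 1, 5 genes were called in CpG 2 and neither control library, which adds Rab4a, Rab11b, Rab29 and Rab35 to Rab5c, and 4 in both control libraries and not in CpG 2. The genes called in every library used then numbered 10. Without CpG 2, 9 genes were called in the control libraries only, and without control 1, 7 were. CpG-only genes numbered 2 without CpG 2 and 2 without control 2. With all libraries used, the 4 genes called in CpG 2 alone were 8.89% of the family, against 2.98% of named and 3.98% of protein-coding genes. The 3 called in control 2 alone were 6.67%, against 6.28% of named and 7.85% of protein-coding genes. For the counts with a library left out no background was computed, so they are given as a description.

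Because the Promoter class depended on the summit at many of these starts, a second count, chosen after the data were seen, took any peak within 500 bp of the gene start. By it 9 and 28 Rab genes were called in CpG 1 and CpG 2, against 27 and 31 in control 1 and control 2. These are 20.0% and 62.2% with CpG and 60.0% and 68.9% in the control, beside 17.0% and 42.9%, and 47.4% and 52.7%, of protein-coding genes in the same libraries. A start counted this way is called covered, although the peak need not reach the start itself. All 4 libraries covered 9 of the 45 Rab genes, a larger share than the 12.0% of protein-coding genes. These were Rab1a, Rab2b, Rab5a, Rab5c, Rab8a, Rab11a, Rab11b, Rab40c and Rab43. None of the 45 was covered in both CpG libraries only, beside 0.846% of protein-coding genes. Rab7 and Rab6a, 2 of the 45, were covered in both control libraries only, a smaller share than the 8.97% of protein-coding genes. At Rab6a, however, CpG 1 and CpG 2 had peaks with summits at 1247 and 1112 bp, within the span of the control 1 peak. A further 14 of the 45 Rab genes were covered in all libraries but CpG 1, a larger share than the 19.1% of protein-coding genes.

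The summits of the 71 promoter peaks of Rab genes had a median of -169 bp from the gene start over the 4 libraries, and 52 lay within the 300 bp before it. The medians were -151 and -179 bp in the CpG libraries and -173.5 and -162.5 bp in the control libraries. Intron peaks were the most frequent class around Rab genes, 66.7% and 54.4% of Rab peaks in CpG 1 and CpG 2 and 63.4% and 58.6% in control 1 and control 2. Among all peaks the intron share was 45.6% and 49.1% with CpG and 51.1% and 50.8% in the control. Merged over the libraries, peaks nearest to Rab genes formed 166 regions, of which 23, or 13.9%, were called in all 4 libraries, against 10.1% of all 55621 regions. Regions called in all libraries but CpG 1 were 21.7% of Rab regions and 12.2% of all regions. Those called in both control libraries only were 9.64% and 8.70%, and those in both CpG libraries only 0.602% and 1.15%.

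The 5 Rab genes with the most peaks were Rab31, Rab8b, Rab7b, Rab14 and Rab7, which together held 161 of 354 Rab peaks, or 45.5%. The median over Rab genes was 4 peaks summed over the 4 libraries, against 3 over named genes. Rab31 had 3 and 9 peaks in CpG 1 and CpG 2 and 16 and 18 in control 1 and control 2, most of them in introns. Of its 20 regions, 2 were called in all 4 libraries. At the one centred 42255 bp into Rab31 the folds were 4.0 and 18.8 in the CpG libraries and 13.8 and 20.4 in the control libraries. At the other, centred 31920 bp in, the highest peaks had folds of 3.98 and 12.1 with CpG and 11.1 and 20.2 in the control. Neither region was confined to a condition.

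Rab8b had 2 and 12 peaks with CpG and 14 and 15 in the control, in 18 regions. The intron region centred 32396 bp into Rab8b was called in all 4 libraries, with folds of 6.40 and 23.9 in CpG 1 and CpG 2 and of 9.58 and 23.0 in control 1 and control 2. Rab7b had 5 and 7 peaks with CpG and 11 and 12 in the control, in 14 regions. In the Rab7b region centred 2589 bp inside the gene, which all 4 libraries called, the highest peaks had folds of 5.67 and 17.6 in the CpG libraries and 6.02 and 14.3 in the control libraries. Rab14 had 2 and 6 peaks with CpG and 4 and 7 in the control. Its intron region centred at 4732 bp was called in all 4 libraries with folds of 5.75 and 12.3 in CpG 1 and CpG 2 and of 6.88 and 9.82 in control 1 and control 2. Of the 69 regions of these 5 genes, none was called in both CpG libraries and no control library, beside 1.15% of all 55621 regions. At so low a background the count is only a description, and the 5 genes were picked by their number of peaks.

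**Figure D4:**
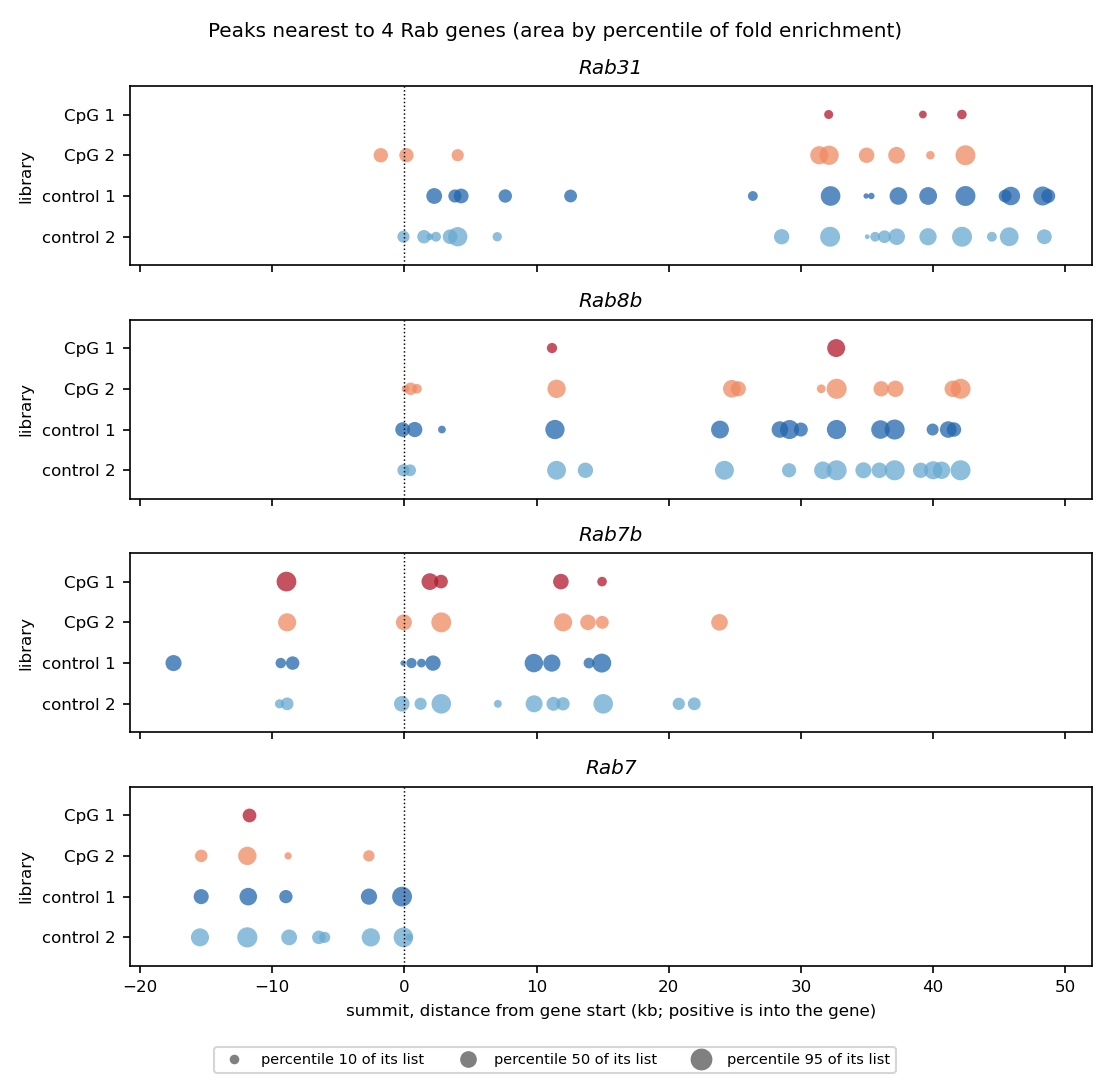
Summits of the peaks nearest to Rab31, Rab8b, Rab7b and Rab7 by their distance from the gene start in kb (positive into the gene), with a line for each anti-IRF5 library and the area of a point set by the peak's percentile of fold enrichment in its own list. Peaks recur at the same distances across libraries, CpG 1 has the fewest at each gene, and at the Rab7 start only the control lines have a point.

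RefSeq windows from 250 bases before to 50 bases after the start were found for 38 of the 45 Rab genes. The GC box GGGCGG was in the windows of 29 of the 38, or 76.3%, against 38.2% of 27018 genes of the table. It was in 19 of 25 Rab genes with a promoter call in any library (76.0%) and in 10 of 13 with none (76.9%). The GC content had a median of 62.0% in the called and 62.7% in the uncalled Rab genes, against 52.8% over all genes of the table. The response element GAAANNGAAA was found at Rab19 alone, 2.63% of the Rab windows against 3.99% of all, as 2 overlapping matches at -10 to -1 and -4 to 5. The PU.1 core GAGGAAGT was found at Rab2b and Rab32 (5.26% against 3.69%), the ETS site ACCGGAAG at Rab11a (2.63% against 2.60%), and the AP-1 site TGANTCA at Rab15 (2.63% against 8.98%). The NRF1 site GCGCANGCGC was at Rab1b, Rab10, Rab12 and Rab35 (10.5% against 5.19%). The PU.1 and ETS motifs share letters, so that similar sites can match either. Both strands were searched, and a match describes the letters of a window and not a bound site.

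Of 123 listed regulators and effectors of Rab proteins, 90 were named in the files. Promoter peaks were called at 12 and 32 of them in CpG 1 and CpG 2, or 13.3% and 35.6%, against 32 and 37 in control 1 and control 2, or 35.6% and 41.1%. These shares lay near those of protein-coding genes, 14.1% and 30.5% in the CpG libraries and 33.2% and 38.8% in the control libraries. All 4 libraries called 8 of them, or 8.89%, beside 5.46% of all named and 7.77% of protein-coding genes. These were the GTPase-activating proteins Evi5l, Tbc1d9, Tbc1d10b and Tbc1d17, the effector Rilpl2, the kinase Lrrk1, the prenylation factor Chml, and Mon1b, part of the exchange factor of Rab7. GTPase-activating proteins were called at 5 and 8 of 21 genes with CpG and at 10 and 12 in the control. Exchange factors were called at 2 and 9 of 30 with CpG and at 10 and 15 in the control. Effectors were called at 3 and 12 of 33 with CpG and at 9 and 8 in the control, and prenylation and recycling factors at 2 and 3 of 6 with CpG and at 3 and 2 in the control. The dissociation inhibitor Gdi2 was called in both CpG libraries only. Dennd1c, Tbc1d2 and Tbc1d23 were called in both control libraries only.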

How the data were processed

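Anti-IRF5 CUT&Tag peaks were analysed in 4 libraries and in 2 lists of whole conditions. The submitters' processing notes name ChIPseeker, MACS2 2.1.0, BWA 0.7.12 and fastp 0.20.0, and no genome build is given in the sources used here. Each peak's pileup is the signal at its summit and its fold enrichment the ratio to local background, both as deposited by the authors. For significance the authors deposited −log10 p-values and −log10 q-values. Libraries were called singly, and the making of the condition lists is not stated.

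Peaks on the 21 assembled nuclear chromosomes were read, and lines that continue an overlong annotation were skipped. Of the gene IDs, 420 named only by themselves were left out of the named genes, a choice made after the first counts were seen. RefSeq symbols matched 16324 named genes. Peaks sharing 1 bp or more across libraries formed 1 region. Each library gave 1 value per measure, and CpG minus control was tested by exact permutation of the libraries (two-sided, 6 assignments), checked on simulated data. Counts of genes carry no test. No interval is given because depth is unknown, and 2 libraries per condition limit the precision.

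The Rab genes and the lists of roles, regulators, effectors and markers were chosen with earlier results of these data known. Of 63 genes in the role lists 45 are members. The 6 motifs and the count of peaks within 500 bp of the start were chosen after the data were seen. Named were Rab genes called in all 4 libraries or in both libraries of 1 condition only, the 5 with the most peaks, 15 fixed genes, and regulators called in all 4 libraries. Other members and the regulators called in 1 condition only were named after their values were seen. Alternatives were stricter peaks, equal lists, other promoter definitions, overlap rules, the condition lists, each library left out and the replicate block. Python 3.11.15, pandas 2.3.3, numpy 2.4.6, scipy 1.17.1 and matplotlib 3.10.9 were used.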

Additional observations from a re-analysis of the deposited data

How the results depend on the processing

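The difference in the Rab promoter share, CpG minus control, was -11.1 percentage points and negative under 5 other settings, from -23.3 to -4.44. With 1 library left out it ranged from -23.3 to 1.11, and it turned to 1.11 without CpG 1. The share of peaks nearest to Rab genes kept its direction, from -0.13 to -0.00285 with 1 library left out. The ratio to named genes, 0.255, was -0.00267 with lists of equal length and -0.0597 when any nearest peak counted, and ranged from 0.164 to 0.347 with 1 library left out. Replicate numbers were taken only as names, since same-numbered libraries deviated together with a correlation of 0.0469 over named genes. With the replicate block the 3 differences were -11.1, -0.0663 and 0.255, each with an exact sign-flip p of 0.5, the smallest it allows.

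The 1 Rab gene called with CpG only became 0 with a −log10 q of at least 10, with the summit within 1 kb, with any nearest peak, with peaks within 500 bp of the start (chosen after seeing the data) and under both overlap rules. It became 4 in the condition lists (Rab3a, Rab4b, Rab5c and Rab11a) and 1 to 5 with 1 library left out (5 without CpG 1, 2 without CpG 2 or control 2). The 4 control-only genes became 2 with the summit within 1 kb (Rab1b and Rab7), 2 within 500 bp of the start, 1 under both overlap rules, and 4 to 9 with 1 library left out (9 without CpG 2, 7 without control 1). Rab7 was among them under each of these settings except any nearest peak. The 5 genes called in all libraries became 3 with the stricter q, 15 with any nearest peak, 9 within 500 bp of the start, and 5 to 10 with 1 library left out, the most without CpG 1. The 8 regulators became 3 with the stricter q. Apart from the count within 500 bp of the start, no share over all genes was computed for these other settings. The causes were not tested. Read depth is unknown, so what it limits was not tested.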
